A study of Mus musculus with 6 samples.

Results

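Rab GTPases are small GTP-binding proteins that sort and move membrane vesicles, and their transcripts were followed here in Hepa 1-6 cells, a mouse hepatoma line, treated with Sonic hedgehog (Shh) or with vehicle. The members were chosen by symbol, as every gene of the deposited table named Rab with a number and at most one further letter and digit. The rule found 59 genes among 18169 and used no measured value. Poly(A) RNA was sequenced from 3 Shh libraries and from 3 libraries that the labels call vehicle and the table calls control. The series' design text speaks of liver exosomes, whereas the sample labels and the study's text name the cell line, which was followed. Both groups are the same line with no genetic change named in the labels, and neither the dose nor the time of Shh treatment is given for these libraries in the sources used here.

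A Rab protein carries GTP when it is active and GDP when it is not. Guanine nucleotide exchange factors (GEFs) load it with GTP, GTPase-activating proteins (GAPs) end the active state, and a lipid tail on C-terminal cysteines, which GDI proteins can shield, lets it bind membranes. Each Rab is found on its own set of membranes, so that Rab5 marks early endosomes, Rab7 late endosomes and Rab1 the path from the endoplasmic reticulum (ER) to the Golgi. Rab27a, Rab27b, Rab11a, Rab35 and Rab7 are known for exosome release, the fusion of multivesicular bodies with the plasma membrane, which the study examined as a route from hepatocytes to macrophages. Rab8a takes part in building the primary cilium, and Rab23 was found in mice as an inhibitor of Hedgehog signaling.

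The libraries held 20253781 to 20291075 counts with Shh and 20278619 to 20335463 counts with vehicle. No library was a copy of another in its group, since the chi-square between replicate libraries, divided by its degrees of freedom, was 4.13 to 9.64 for pairs with Shh and 1.70 to 2.33 for pairs with vehicle. No label tells if a group's libraries were separate cultures, so that the spread behind the p-values may be technical. Of 12 hepatocyte markers, 9 were at 1 FPKM or more, with *Alb* at 494 FPKM in both groups, while *Apoh*, *Ttr* and *Serpina1a* stayed under 1 FPKM in every library. The summed level of the 12 was 1104 to 1153 FPKM with Shh and 1135 to 1154 FPKM with vehicle. Of 12 measured markers of other liver cells, 5 had a mean of 1 FPKM or more. These were *Cd68* (10.8 FPKM with Shh and 11.9 FPKM with vehicle), *Krt19* (4.66 and 5.58), *Epcam* (4.28 and 4.37), *Col1a1* (2.13 and 1.96) and *Col1a2* (1.26 and 1.15). The sum of the 12 was 20.8 to 31.4 FPKM with Shh and 24.4 to 27.6 FPKM with vehicle. *Ptprc*, *Adgre1*, *Pecam1*, *Stab2*, *Cdh5* and *Lrat* stayed below 0.4 FPKM. In bulk RNA, fewer cells with a transcript and less of it per cell cannot be told apart.

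Close paralogs are the first question for counts of this family, since reads of 50 bases can be shared by near-identical genes. Below are 50-base stretches of the coding strand, one read long, around the WDTAGQE segment of switch II, the part of a Rab protein that moves when GTP is hydrolyzed. They are shown for paralogs whose values the results turn on and whose proteins share this segment, which *Rab20* lacks. Capitals mark the codons of WDTAGQE. The sequences come from GENCODE M21 transcripts on GRCm38 and are written 5′ to 3′.
Rab8a: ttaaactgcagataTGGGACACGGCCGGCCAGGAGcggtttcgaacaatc
Rab8b: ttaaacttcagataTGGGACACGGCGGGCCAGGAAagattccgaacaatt
Rab5a: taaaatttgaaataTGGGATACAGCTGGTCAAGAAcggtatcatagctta
Rab5b: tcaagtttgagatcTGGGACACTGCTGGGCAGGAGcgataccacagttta
Rab5c: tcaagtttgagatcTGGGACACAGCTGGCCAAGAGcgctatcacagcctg
Rab1a: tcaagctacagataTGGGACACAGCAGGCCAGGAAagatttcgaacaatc
Rab1b: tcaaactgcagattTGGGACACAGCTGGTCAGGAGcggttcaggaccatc
Rab11a: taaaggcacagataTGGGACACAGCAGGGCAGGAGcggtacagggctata
Rab11b: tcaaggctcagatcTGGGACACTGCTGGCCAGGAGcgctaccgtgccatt

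The *Rab8a* stretch runs from exon 2 to exon 3 (chr8:72168472-72171273, plus strand) and that of *Rab8b* from exon 2 to exon 3 as well (chr9:66860864-66863438, minus strand). The *Rab5* stretches lie within exon 3 of *Rab5a* (chr17:53497569-53497618, plus strand), *Rab5b* (chr10:128683255-128683304, minus strand) and *Rab5c* (chr11:100718491-100718540, minus strand). Those of *Rab1a* (chr11:20218895-20223119, plus strand) and *Rab1b* (chr19:5104701-5104846, minus strand) join exons 3 and 4. Those of *Rab11a* (chr9:64728242-64728291, minus strand) and *Rab11b* (chr17:33749790-33749839, minus strand) lie within exon 2. The stretches code for the same amino acids in capitals but differ at 7 of 50 bases between *Rab8a* and *Rab8b*, 8 between *Rab5b* and *Rab5c*, 11 between *Rab11a* and *Rab11b* and 12 between *Rab1a* and *Rab1b*. The Rab1a and Rab1b proteins are identical at 92.5% of 201 aligned residues, those of Rab11a and Rab11b at 90.7% of 216, and those of Rab8a and Rab8b at 83.6% of 207. No exact run of 50 coding bases was shared within any of the 16 pairs of Rab genes compared. The printed stretches of *Rab8b*, *Rab5b* and *Rab11b* each occur in another gene of the annotation, so that a read of exactly those bases is not unique to them.

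Sharing with pseudogenes and overlapping genes was more common than sharing between paralogs. Counts in 18 of the 59 genes were not whole in at least one library (tolerance 0.001), as when a counting tool splits reads between genes. Of these 18 genes, 10 shared at least one 50-base run with a pseudogene, against 6 of the 41 genes with whole counts. A run shared with any other gene was found for 12 of the 18 and for 18 of the 41. Some genes with fractional counts, *Rab1a* among them, thus shared no run at all. *Rab7* shared 12.7% of its exonic 50-base runs, mostly with *Rab7-ps1*, *Rab11b* 13.6%, mostly with *Rab11b-ps2*, *Rab5b* 9.81% with *Gm13991* and *Rab8b* 5.46%, mostly with *Gm20689*. Overlapping gene models took a larger share in *Rab43* (74.5%, *Gm45140*), *Rab4b* (58.1%, *Gm21983*), *Rab2b* (57.0%, *Gm43766*), *Rab24* (49.6%, *Prelid1*), *Rab20* (22.9%, *E230013L22Rik*), *Rab33b* (21.2%, *Gm38160*) and *Rab6a* (19.0%, *Mrpl48*). These are shares of distinct 50-base runs over all GENCODE transcripts of a gene, not of reads, so that they do not measure the uncertainty of the counts. *Rab43*, *Rab4b*, *Rab2b*, *Rab24*, *Rab20* and *Rab6a* had whole counts in every library. The counts of these 11 genes and of the other genes with fractional counts remain uncertain to an unknown extent. How shared reads were handled is not stated in the sources used here. Those other genes include *Rab1a*, *Rab2a*, *Rab27a* and *Rab27b*, each fractional in all 6 libraries.

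The sequence family could also be read from the proteins coded by the same transcripts. The WDTAGQE segment was found in 49 of the 59 Rab proteins, against 0.294% of 21767 mouse proteins, and the phosphate-binding P loop (GXXXXGK followed by S or T) in 57 of 59, against 4.31%. The C terminus ended in 2 cysteines or in a pair with one residue between them in 35 of 59, against 0.652% of all proteins. Cysteine pairs of this kind take 2 geranylgeranyl groups. In 6 others a pair of cysteines was followed by 2 residues. A further 15, among them Rab11a and Rab11b, had a cysteine at the fourth position from the end. The residue before that cysteine was not considered, so that these 15 may include cysteine pairs too.

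Transcript levels spanned the family widely. Levels were compared between genes on the deposited FPKM scale, which divides fragments by transcript length and library size, since counts alone favour long transcripts. A mean of at least 10 FPKM was found for 29 of the 59 genes, at least 1 FPKM for 40, and less for 19. *Rab7* was highest, at 240, 227 and 232 FPKM in Shh libraries and 233, 235 and 231 FPKM in vehicle libraries. It was followed by *Rab5c*, at 155 ± 5.52 FPKM with Shh and 159 ± 4.75 FPKM with vehicle (SD, n = 3 each). The ER-to-Golgi genes came next, with *Rab1b* at 109 ± 2.93 FPKM with Shh and 109 ± 2.86 FPKM with vehicle and *Rab2a* at 108 ± 4.17 FPKM with Shh and 103 ± 2.53 FPKM with vehicle. *Rab1a* was at 90.3 ± 3.37 FPKM with Shh and 85.6 ± 3.32 FPKM with vehicle. These 5 genes held 45.4% of the summed FPKM of the family.

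The order of levels was sharp at the top and blurred further down. Of 58 neighbours in the order, 13 did not overlap over the 6 libraries, and all of those were among the genes with at least 1 FPKM. *Rab1b* and *Rab2a* overlapped, while *Rab7*, *Rab5c* and *Rab1a* each stood apart from the next gene down. From *Rab31* to *Rab43*, at means of 31.9 to 21.7 FPKM, every gene overlapped the next. The summed level of the 59 genes was 1534, 1512 and 1535 FPKM in Shh libraries and 1533, 1520 and 1522 FPKM in vehicle libraries, so that the groups overlapped.

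**Figure D1:**
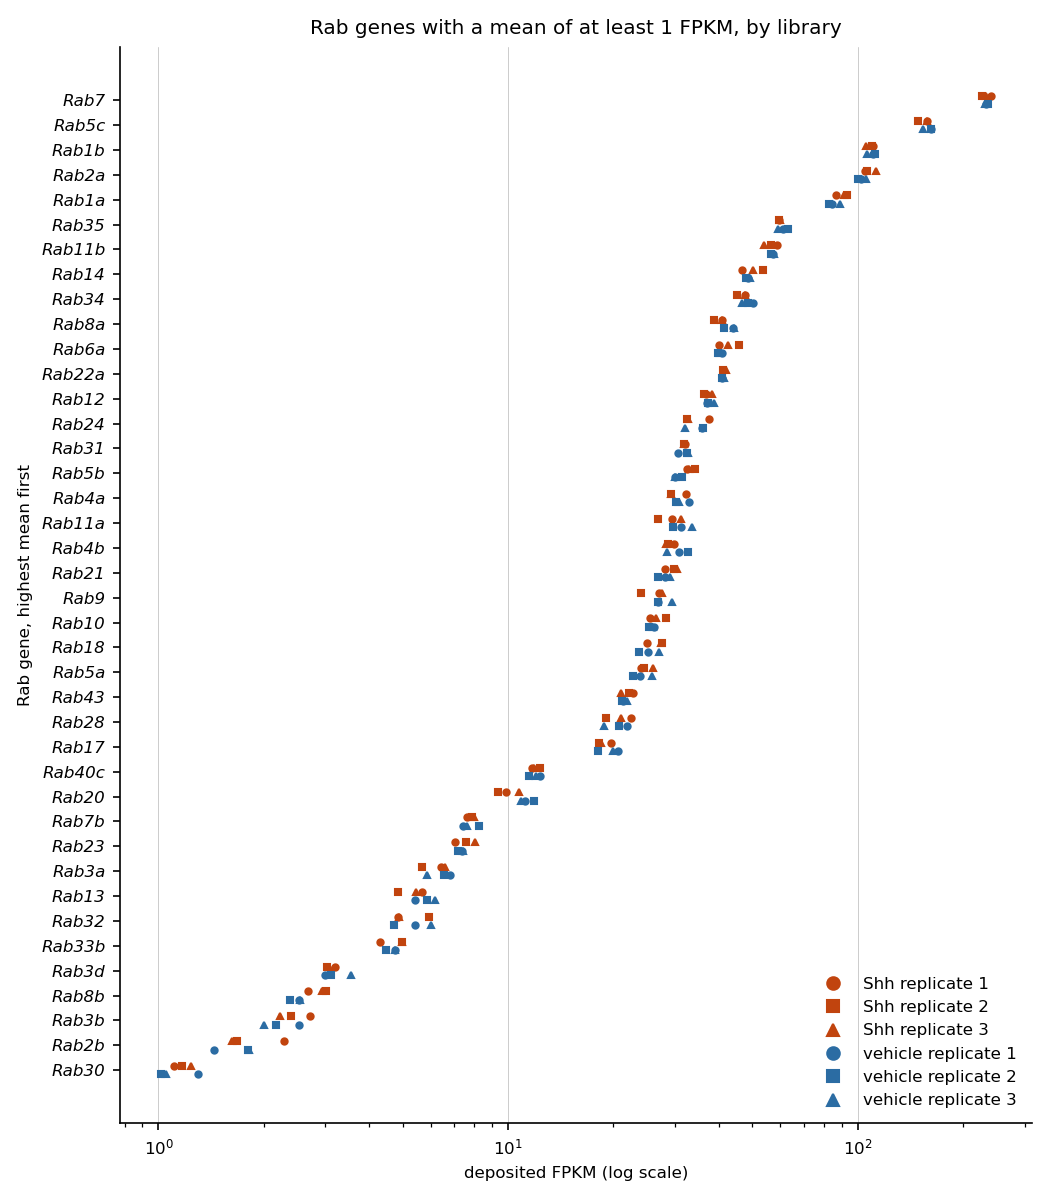
Deposited FPKM (log scale) of the 40 Rab genes with a mean of at least 1 FPKM, one symbol per library, Shh in orange above vehicle in blue within each gene. Rab7 stands at the top near 233 FPKM, the symbols of both groups lie close together in nearly every gene, and the spread widens below 10 FPKM.

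The exosome-linked genes stood at very different levels. *Rab7* led, *Rab35* was at 59.7 ± 0.356 FPKM with Shh and 61.2 ± 2.00 FPKM with vehicle, and *Rab11a* at 29.2 ± 2.22 FPKM with Shh and 31.5 ± 2.05 FPKM with vehicle (SD, n = 3 each). *Rab27a* was at 0.967 ± 0.035 FPKM with Shh and 0.933 ± 0.250 FPKM with vehicle. *Rab27b* was at 0.193 ± 0.047 FPKM with Shh and 0.177 ± 0.021 FPKM with vehicle. The last pair rested on 40.5 to 71.6 counts per library for *Rab27a* and 20.5 to 33.1 for *Rab27b*, so that only large differences were detectable there.

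The comparison of Shh with vehicle asked which transcripts of the family differed. Of the 59 genes, 48 passed edgeR's expression filter and were tested among 12286 genes. No Rab gene passed an adjusted p of 0.05 (0 by edgeR's quasi-likelihood test and 0 by DESeq2), as no gene of the table did (0.0%). The smallest adjusted p of a Rab gene was 0.469 from edgeR. At an unadjusted p under 0.05, edgeR placed 2 Rab genes higher with Shh, *Rab8b* and *Rab5b*, beside 4.83% of all genes tested, and 2 lower, *Rab8a* and *Rab20*, beside 5.56%. DESeq2 placed 0 higher and 1 lower, *Rab8a*. The same 2 genes had every Shh library above every vehicle library, beside 6.79% of all genes, and the same 2 had every Shh library below, beside 8.67%. Each count is 2 of 48 Rab genes, a share near the background. None of the 4 kept an unadjusted p under 0.05 whichever library was left out. Without Shh replicate 2 only *Rab8a* kept it, without Shh replicate 3 *Rab8a* and *Rab20*, without vehicle replicate 2 *Rab8a* and *Rab5b*, and without vehicle replicate 1 or 3 *Rab8b* and *Rab20*.

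The differences were small throughout. The 48 log2 fold changes (Shh over vehicle) ran from -0.21 to 0.19, with 23 above 0 and 25 below. Of all 12286 genes tested, 6285 lay above 0 and 6001 below. Their median was -0.0054, against 0.0028 over all genes tested. An absolute log2 fold change under 0.1 was found for 33 of the 48, and 33 had a 95% confidence interval that lay within -0.3 and 0.3. The median standard error was 0.061, against 0.065 over all genes. Within single libraries, the median Rab gene lay at 0.0007, -0.055 and -0.012 in Shh libraries and at 0.011, -0.015 and 0.0061 in vehicle libraries (log2 relative to the vehicle mean), so that Shh replicate 2 was the lowest.

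**Figure D2:**
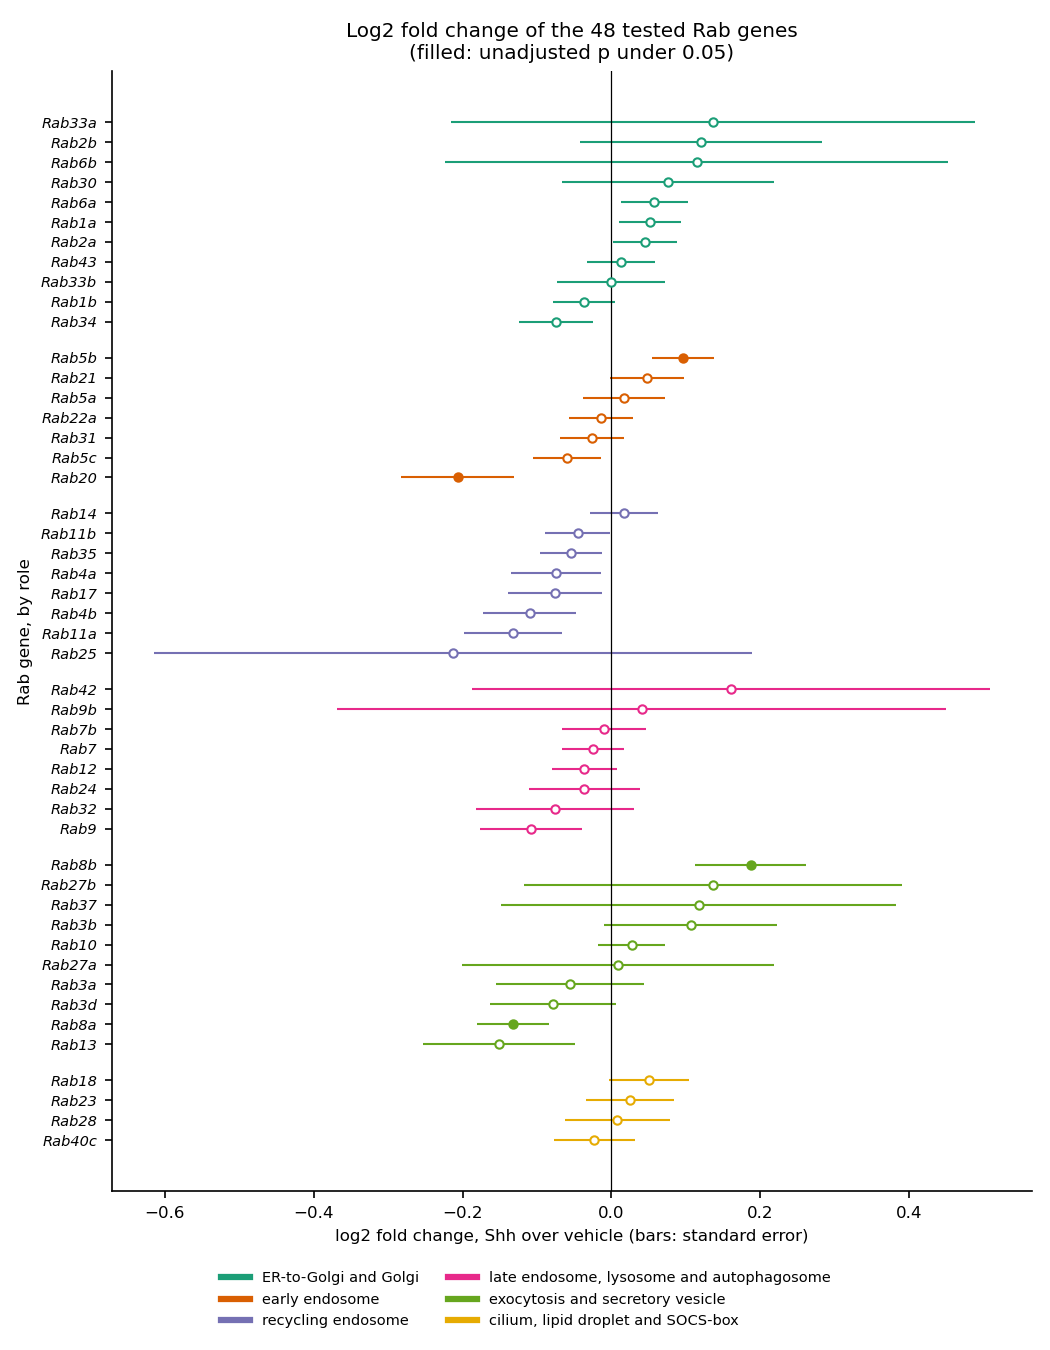
Log2 fold change of Shh over vehicle for the 48 tested Rab genes, grouped and coloured by role, with the standard error as a bar. Filled symbols mark the 4 genes with an unadjusted p under 0.05, Rab5b and Rab8b to the right of 0 and Rab8a and Rab20 to the left, and none passed an adjusted p of 0.05.

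Among the Rab genes of exocytosis, *Rab8a* and *Rab8b* lay on opposite sides. Both act in traffic from the Golgi to the plasma membrane, and Rab8a also in ciliary growth. Values per library are CPM, counts scaled to a common library total, with TMM, edgeR's correction for library composition. *Rab8a* was at 80.5, 74.4 and 79.8 CPM in Shh libraries, against 87.3, 82.3 and 87.7 CPM in vehicle libraries. Every Shh library lay below every vehicle library, the highest Shh and the lowest vehicle value being close. The log2 fold change was -0.13 (standard error 0.048, adjusted p = 0.469 from edgeR). *Rab8b* was at 12.6, 13.9 and 13.7 CPM with Shh, against 12.0, 11.3 and 12.0 CPM with vehicle. The groups did not overlap here either, with Shh above, and the log2 fold change was 0.19 (standard error 0.075, adjusted p = 0.469 from edgeR). The adjusted p of *Rab8a* ranged from 0.114 to 0.847 over the alternatives and that of *Rab8b* from 0.128 to 0.847.

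Of the 13 exocytosis and secretory genes, 10 were tested, 6 lay above 0 and 4 below, and the median log2 fold change was 0.018. *Rab10*, which moves the glucose transporter GLUT4 to the surface of fat cells, had a log2 fold change of 0.03 (95% interval -0.070 to 0.124). *Rab27a*, which docks multivesicular bodies at the plasma membrane, was at 3.02, 2.75 and 2.94 CPM with Shh, against 3.59, 3.09 and 1.98 CPM with vehicle. The vehicle libraries enclosed the Shh libraries, and the log2 fold change was 0.01 with an interval from -0.447 to 0.464. *Rab27b* was at 1.04, 1.59 and 1.52 CPM with Shh, against 1.15, 1.25 and 1.38 CPM with vehicle. Its log2 fold change was 0.14 (interval -0.415 to 0.687), and the groups overlapped.

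Among the early endosome genes, all 7 of which were tested, *Rab5b* and *Rab20* stood out in opposite directions. Rab5 proteins drive the fusion of early endosomes. *Rab5b* was at 103, 106 and 103 CPM in Shh libraries, against 96.4, 100 and 95.3 CPM in vehicle libraries. The groups did not overlap, and the log2 fold change was 0.10 (standard error 0.042, adjusted p = 0.473 from edgeR). However, the *Rab5b* counts were fractional in every Shh library and whole in every vehicle library. What this adds to the difference was not tested. *Rab20*, found on endosomes and phagosomes, was at 13.9, 12.8 and 15.0 CPM with Shh, against 15.9, 16.7 and 15.4 CPM with vehicle. Every Shh library lay below the vehicle libraries, at -0.21 ± 0.076 on the log2 scale (standard error, edgeR adjusted p = 0.469), the lowest of the family but for the sparsely counted *Rab25*. *Rab5c*, the most abundant Rab5 gene, was at 298, 272 and 295 CPM with Shh, against 307, 306 and 289 CPM with vehicle. Its groups overlapped, and the log2 fold change was -0.06 (interval -0.160 to 0.039). *Rab5a*, *Rab21*, *Rab22a* and *Rab31* had log2 fold changes of 0.02, 0.05, -0.01 and -0.03.

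The recycling endosome genes lay mostly below 0, 7 of the 8 tested, beside 6001 of all 12286 genes. Their median log2 fold change was -0.075, with no gene past an unadjusted p of 0.05. Without Shh replicate 2 the median was -0.041 and all 8 lay below 0. Rab11 and Rab4 proteins return receptors from endosomes to the cell surface. *Rab11a* was at 67.6, 59.9 and 71.1 CPM with Shh, against 72.2, 68.2 and 77.3 CPM with vehicle. The groups overlapped, since Shh replicate 3 exceeded vehicle replicate 2, and the log2 fold change was -0.13 (standard error 0.066, adjusted p = 0.496 from edgeR). Without Shh replicate 2 it was -0.065. *Rab4b* was at 33.6, 31.4 and 31.6 CPM with Shh, against 34.9, 37.0 and 32.2 CPM with vehicle, with a log2 fold change of -0.11 (interval -0.245 to 0.026), and of -0.034 with an offset for transcript length in the fit. *Rab35*, which controls recycling and exosome release in oligodendroglial cells, was at 127, 123 and 125 CPM with Shh, against 130, 134 and 125 CPM with vehicle. Its log2 fold change was -0.05 (interval -0.146 to 0.037). *Rab14* alone lay above 0, at 0.02, and *Rab11b*, *Rab4a* and *Rab17* were at -0.05, -0.07 and -0.08.

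Of the 12 genes of late endosomes, lysosomes and autophagosomes, 8 were tested, and 6 of these lay below 0 with a group median of -0.031. Without Shh replicate 2 the median was 0.0028 and 3 lay below 0. *Rab7*, which leads late endosomes to lysosomes, was at 509, 467 and 487 CPM in Shh libraries, against 496, 503 and 490 CPM in vehicle libraries. The vehicle libraries lay within the Shh range, and the log2 fold change was -0.03 (interval -0.116 to 0.066). *Rab7* had at least 9690 counts in each library. *Rab9*, which returns mannose 6-phosphate receptors from late endosomes to the Golgi, was at 30.7, 26.8 and 31.7 CPM with Shh, against 31.1, 31.5 and 33.6 CPM with vehicle. The groups overlapped, with a log2 fold change of -0.11 (interval -0.257 to 0.040), and Shh replicate 2 was the lowest library. It was -0.039 without that library and -0.036 with the length offset.

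The ER-to-Golgi and Golgi genes lay mostly above 0, 8 of the 11 tested, beside 6285 of all 12286 genes. Their median was 0.051, with no gene past an unadjusted p of 0.05. Those above 0 included *Rab2b*, *Rab30*, *Rab6b* and *Rab33a*, at means of 0.188 to 1.775 FPKM and standard errors of 0.142 to 0.352. *Rab34*, at a mean of 47.6 FPKM, was below 0, at -0.07. *Rab1a*, needed for transport from the ER, was at 243, 254 and 254 CPM with Shh, against 240, 234 and 251 CPM with vehicle. Its log2 fold change was 0.05 (interval -0.039 to 0.142), and that of its paralog *Rab1b* was -0.04 (interval -0.127 to 0.054), at 199, 192 and 187 CPM with Shh and 200, 202 and 191 CPM with vehicle. *Rab2a*, of the Golgi, was at 218, 213 and 231 CPM with Shh, against 213, 209 and 219 CPM with vehicle, a log2 fold change of 0.05 (interval -0.047 to 0.137). *Rab6a*, which acts in traffic back through the Golgi, was at 127, 141 and 134 CPM with Shh, against 131, 127 and 128 CPM with vehicle. All 4 of these genes overlapped between the groups, and *Rab6a* had a log2 fold change of 0.06 (interval -0.041 to 0.156).

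*Rab23*, the inhibitor of Hedgehog signaling, was at 30.1, 31.6 and 34.1 CPM in Shh libraries, against 31.8, 30.6 and 31.7 CPM in vehicle libraries. The Shh libraries enclosed the vehicle libraries, and the log2 fold change was 0.03 (interval -0.103 to 0.154), with a sign that turned with an offset for transcript length. The lipid droplet gene *Rab18*, the ciliary gene *Rab28* and the SOCS-box gene *Rab40c* had log2 fold changes of 0.05, 0.01 and -0.02. The Hedgehog target genes *Gli1* and *Ptch1* had log2 fold changes of 0.04 (standard error 0.181) and 0.03 (standard error 0.065), and *Hhip* was at most 0.149 CPM in every library.

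**Figure D3:**
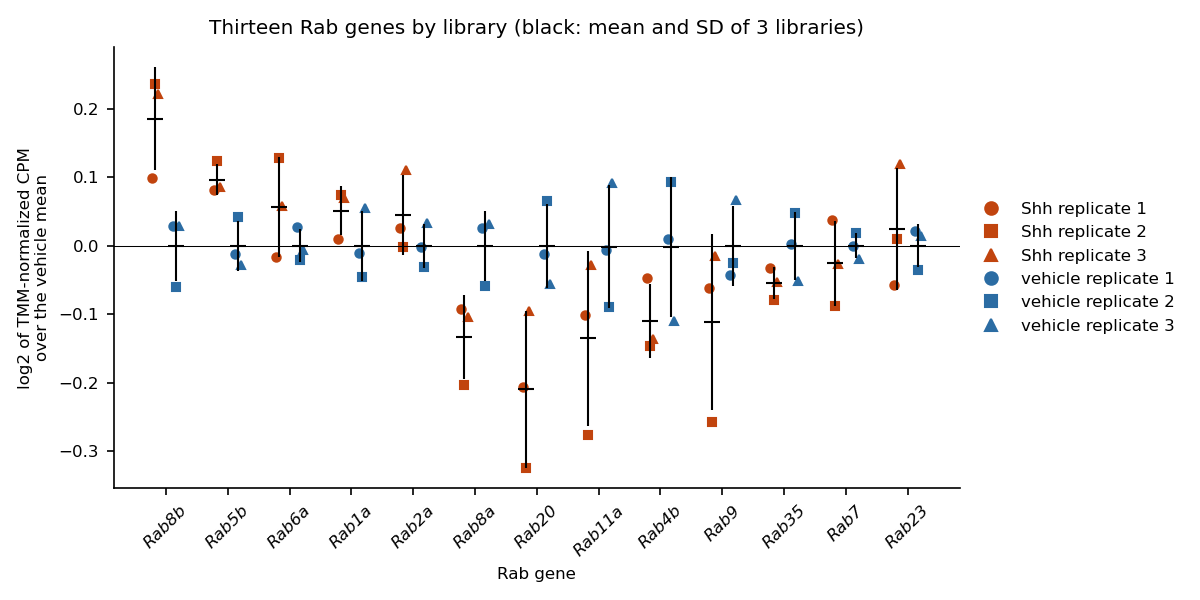
Log2 of TMM-normalized CPM over the vehicle mean for 13 Rab genes, one symbol per library, Shh in orange left of vehicle in blue, with the mean and SD of 3 libraries in black. Rab8b and Rab5b have all Shh symbols above the vehicle symbols, Rab8a and Rab20 all below, and in the other 9 genes the groups overlap.

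The balance within paralog sets was compared on FPKM. *Rab8b* made up 6.14%, 7.21% and 6.69% of the summed *Rab8a* and *Rab8b* level in Shh libraries, against 5.43%, 5.42% and 5.41% in vehicle libraries. The groups did not overlap, which follows from the separation of both genes described above and is no further result. The vehicle libraries were nearly equal. *Rab8b* counts were fractional in all 6 libraries. *Rab5b* made up 15.2%, 16.5% and 15.1% of the 3 Rab5 genes with Shh, against 13.9%, 14.6% and 14.3% with vehicle, again without overlap. Its counts were fractional in the Shh libraries alone. With 3 libraries a group, an exact two-sided permutation p could not fall below 0.1, and none was computed. The shares of *Rab1a*, at 45.4% ± 1.32 with Shh and 43.9% ± 1.60 with vehicle, and of *Rab11a*, at 34.1% ± 2.29 with Shh and 35.5% ± 1.24 with vehicle (SD, n = 3 each), overlapped between the groups. *Rab5c* held 72.8% ± 1.03 of the Rab5 level with Shh and 74.4% ± 0.936 with vehicle, also overlapping. So did the share of *Rab27a* in the Rab27 pair, at 83.4% ± 3.91 with Shh and 83.3% ± 5.8 with vehicle. Every share in the sets of Rab2, Rab3, Rab4, Rab6, Rab7, Rab9 and Rab33 overlapped as well. No background over paralog sets of other families was computed. In both sets that separated, the gene whose share was larger under Shh had the longest transcript. *Rab8b* had 4708 bases beside 1963 for *Rab8a*. *Rab5b* had 3153 beside 2315 for *Rab5a* and 1874 for *Rab5c*.

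**Figure D4:**
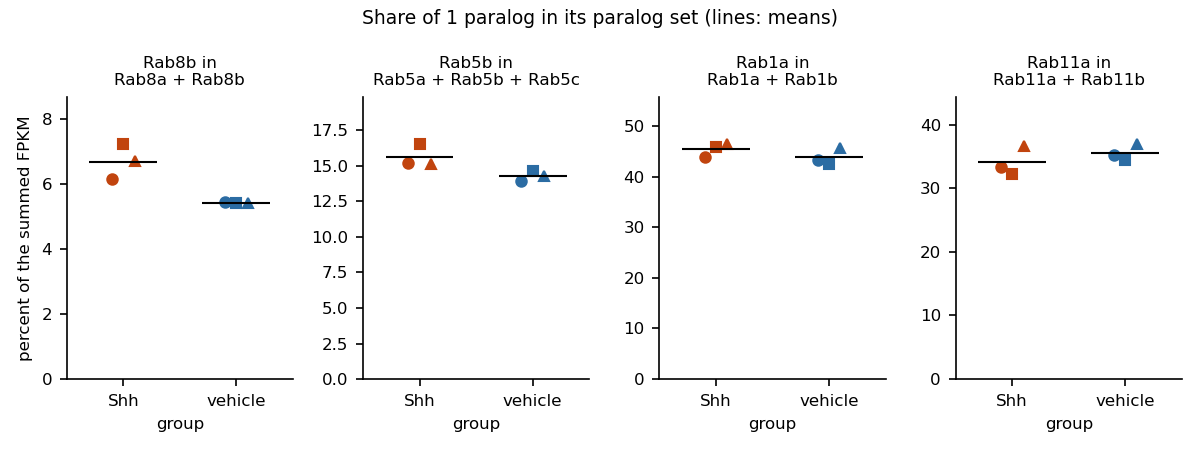
Share of one paralog in the summed FPKM of its set, in percent, one symbol per library with the group mean as a line, Shh left of vehicle. Rab8b and Rab5b have all Shh libraries above the vehicle libraries, while Rab1a and Rab11a overlap.

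Transcript length moved with the log2 fold change, in this family and in the whole table. The length behind each gene's counts was recovered from count and FPKM, for 44 of the 48 genes. Spearman's correlation of length with log2 fold change was 0.62 across these 44 genes and 0.54 across 11471 genes of the table, as a description only, since genes share libraries and are not independent replicates. Of the 22 Rab genes of up to 2151 bases, 3 lay above 0 and the median was -0.058. Of the 22 longer ones, 16 lay above 0 and the median was 0.026. All genes, split at 2690 bases in the same way, had medians of -0.048 for the shorter and 0.044 for the longer ones.

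The 4 genes with separated groups followed the same order, with *Rab20* at 1401 bases and *Rab8a* at 1963 below 0, and *Rab5b* at 3153 and *Rab8b* at 4708 above. With an offset for length in the fit, their log2 fold changes were -0.15 for *Rab20*, -0.11 for *Rab8a*, 0.08 for *Rab5b* and 0.13 for *Rab8b*. Each kept its sign, and of the 4 only *Rab8a* kept an unadjusted p under 0.05. By role, the offset left 7 of 8 recycling genes below 0 with a median of -0.035, and 6 of 10 ER-to-Golgi genes above 0 with a median of 0.041. The early endosome median turned to 0.014, against -0.014 without the offset, and the exocytosis median to -0.00055. What lies behind the trend with length was not tested.

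**Figure D5:**
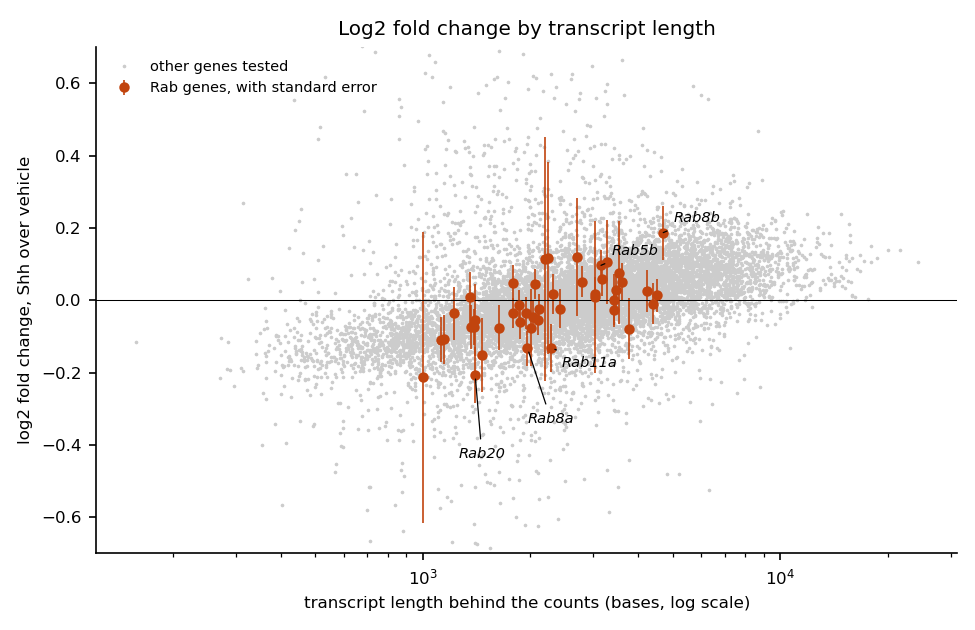
Log2 fold change of Shh over vehicle against transcript length (bases, log scale), with the 44 Rab genes of known length in orange with standard errors and the other tested genes in grey. Short Rab genes such as Rab20 lie mostly below 0 and long ones such as Rab8b mostly above, as in the grey cloud, and 59 other genes lie beyond the vertical axis.

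The regulators that switch Rab proteins on and off did not pass the adjusted threshold either, with 0 genes called in each list by edgeR and 0 by DESeq2. Of 7 genes for prenylation and GDI, all tested, 1 had an unadjusted p under 0.05, on the lower side, and the median log2 fold change was -0.048. The one lower was *Rabac1*, whose product binds prenylated Rab proteins, at 88.2, 78.4 and 81.9 CPM with Shh, against 91.9, 97.6 and 88.4 CPM with vehicle. Its log2 fold change was -0.16, and -0.065 with the length offset, at 826 bases. The geranylgeranyl transferase genes *Rabggta* and *Rabggtb* also had every Shh library below vehicle, at -0.10 and -0.07, and these 3 of 7 genes stand beside 8.67% of all genes. With the length offset they were at -0.089 and -0.007, and the list's median was -0.0097. Without Shh replicate 2 that median was -0.022.

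Of 39 GEF genes tested, 2 were higher and 1 lower at that unadjusted p, beside 4.83% and 5.56% of all genes. Their median was 0.027, and -0.023 with the length offset, so that its sign turned. *Trappc4*, a subunit of the TRAPP complex that activates Rab1, was at 35.9, 33.5 and 35.5 CPM with Shh, against 41.3, 41.0 and 38.2 CPM with vehicle. The groups did not overlap, and the log2 fold change was -0.20 (standard error 0.054, adjusted p = 0.469 from edgeR). *Dennd4c*, an exchange factor of Rab10, and *Rin2*, of Rab5, were at 0.18 and 0.15, both with every Shh library above vehicle. Among the 39 genes, 4 were separated in this way and 3 had every Shh library below, beside 6.79% and 8.67% of all genes. The offset gave -0.114 for *Trappc4*, 0.107 for *Dennd4c* and 0.095 for *Rin2*.

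Of 36 GAP genes tested, 4 were higher and 0 lower at that unadjusted p, beside 4.83% and 5.56% of all genes. Their median was 0.022, and -0.012 with the length offset, which turned its sign, and 0.0095 without Shh replicate 2. *Tbc1d30* was at 3.27, 3.52 and 2.65 CPM with Shh, against 2.30, 1.84 and 2.28 CPM with vehicle, with no overlap and a log2 ratio of 0.56 ± 0.185 (standard error, edgeR adjusted p = 0.469). *Evi5*, a GAP of Rab11, was at 0.19, also with no overlap. In this list, 3 genes had every Shh library above vehicle and 3 every one below, beside 6.79% and 8.67% of all genes. *Usp6nl*, a GAP of Rab5, was at 0.13 and *Rabgap1*, a GAP of Rab6, at 0.15, and both overlapped. With the offset, *Tbc1d30* was at 0.484, *Evi5* at 0.119, *Usp6nl* at 0.067 and *Rabgap1* at 0.090. *Rabgap1* passed the adjusted threshold in one setting alone, without Shh replicate 1 (log2 fold change 0.22, adjusted p = 0.0487 from edgeR, range 0.0487 to 0.847 over the alternatives).

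Of 45 effector genes tested, 3 were higher and 2 lower at that unadjusted p, beside 4.83% and 5.56% of all genes. The log2 fold change was above 0 for 30 and below for 15, with a median of 0.027. With the length offset the direction turned, with 16 above, 26 below and a median of -0.013. *Rbsn*, which links Rab4 and Rab5 on early endosomes, was at 47.8, 49.7 and 49.1 CPM with Shh, against 44.4, 44.3 and 44.3 CPM with vehicle, a log2 fold change of 0.14 ± 0.045 (standard error, edgeR adjusted p = 0.469). The Rab5 effector gene *Appl2* was at -0.15 and the Rab8 and Rab10 effector gene *Ehbp1* at 0.17, both without overlap. Among the 45 genes, 5 had every Shh library above vehicle and 3 every one below, beside 6.79% and 8.67% of all genes. The offset gave 0.081 for *Rbsn*, -0.166 for *Appl2* and 0.111 for *Ehbp1*. Of 5 Rab-like GTPase genes tested, 1 passed that unadjusted p, *Ift22* of intraflagellar transport, at -0.11, and at -0.023 with the length offset for its 920 bases. The lists other than prenylation and the Rab-like genes hold long transcripts, with median lengths of 3937 to 4514 bases against 2690 over all genes.

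The 11 Rab genes that were not tested had at most 20 counts in every library. They were *Rab26*, *Rab15*, *Rab40b*, *Rab29*, *Rab44*, *Rab3c*, *Rab38*, *Rab36*, *Rab19*, *Rab39* and *Rab39b*. None was at 0 in all 6 libraries. *Rab26*, of secretory granules, had 5, 7 and 8 counts with Shh and 14, 8 and 4 counts with vehicle. *Rab3c*, of synaptic vesicles, had 14.6, 2.06 and 3.08 estimated counts with Shh and 1.05, 3.21 and 0 with vehicle, so that Shh replicate 1 alone was high.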

How the data were processed

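The deposited table holds estimated counts made by the authors (36.4% of those above 0 were fractional) and FPKM that the authors scaled by length and library total, from single-end reads of 50 bases. The submitters' processing notes name Bowtie2, and no source used here gives the counting tool, genome build or annotation. Control columns were matched to the vehicle samples as the sole untreated group, by number. A further 6 per-sample columns in another unit were not used.

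Counts were rounded and tested in R 4.3.3 with edgeR 4.0.16 (TMM, filter with a minimum count of 10 and total of 15, quasi-likelihood test, group alone, two-sided, Benjamini-Hochberg over all genes tested, threshold 0.05), after the script was tested on simulated data. Intervals use the moderated degrees of freedom. FPKM gave levels between genes and, where at least 0.5, the recovered lengths. DESeq2 1.42.0, upper-quartile factors, 2 other filters, a replicate block, an offset for transcript length (a spline of 5 degrees of freedom in each library), block and offset combined, and leave-one-out fits were alternatives. Sequences and 50-base runs were read from GENCODE M21 transcripts with Python 3.11.15. The design called for a protein table of the reference, and translated GENCODE coding sequences were used in its place.

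The members and lists were chosen with earlier results of these data known. Library values are given for the Rab genes linked to exosomes, cilium or Hedgehog traffic, the 5 in each direction with the smallest p, the 5 highest by FPKM and paralogs, for up to 4 genes of each regulator list with the smallest p, and for Hedgehog targets, of which 1 is not reported here.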

Additional observations from a re-analysis of the deposited data

How the results depend on the processing

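No Rab gene passed an adjusted p of 0.05 in any of the alternatives tried. Over the whole table the count of genes called was 0 and became 1 with no filter, 1 with the length offset, 5 with the replicate block and length offset together, and 0 to 195 when single libraries were left out, the 195 without Shh replicate 1. Rab genes higher at an unadjusted p under 0.05 numbered 2 and became 0 with DESeq2, with the length offset and with the block and offset together, and 0 to 2 on leaving out libraries. Those lower numbered 2 and became 1 with DESeq2 and 1 with the length offset, and 1 to 4 on leaving out libraries. Separated Rab genes numbered 2 above and 2 below, and leaving out libraries gave 2 to 7 above and 2 to 8 below. Groups separate more readily once a library is left out, since there are fewer values to overlap. Shares over all genes in these alternatives are not given for the separated or the unadjusted counts. These counts therefore cannot be read as particular to the Rab genes. Regulator genes called numbered 0, and 0 to 1 on leaving out libraries. The median log2 fold change of the Rab genes ranged from -0.043 without Shh replicate 1 to 0.0045 without Shh replicate 2.

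Deviations from the group mean had correlations of -0.030, -0.067 and 0.124 between Shh and vehicle libraries of the same number, 1 to 3. Between libraries of different numbers they ran from -0.174 to 0.208. With so few libraries, a pairing by number could be neither shown nor excluded. The replicate block gave 0 genes called over the table and 5 Rab genes at an unadjusted p under 0.05, with 4 of these shared with the fit without the block and *Rab11a* added. With no filter, *Rab3c* was added.

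Of 501 log2 fold changes of 39 named genes over the alternatives, 484 kept their sign and their side of the threshold, 1 passed it and 16 turned sign, for reasons that were not tested. The turned values were of genes near 0. *Rab23* was -0.019 with the length offset and with block and offset, and ran from -0.024 to 0.065 on leaving out libraries. *Rab27a* was -0.007 with the length offset and ran from -0.201 without vehicle replicate 3 to 0.196 without vehicle replicate 1. *Ptch1* was -0.048 with the length offset, -0.046 with block and offset, and ran from -0.033 to 0.073. On leaving out libraries *Rab7* ran from -0.057 to 0.005, *Rabl3* from -0.012 to 0.133 and *Gli1* from -0.060 to 0.104. *Rab27a* and *Rab27b*, at under 80 counts per library, had intervals wider than 0.9 log2 units.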
